A study of Mus musculus with 65 samples.

Results

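Caloric restriction (CR) at 24 months was examined in the spinal cord as the Z scores of 7 restricted mice of 673 to 743 days set against those of 10 mice of 704 to 743 days fed ad libitum (AL). The members were chosen by the age and diet labels, 17 of the 65 mice of the series. All mice were C57BL/6, and total RNA of the spinal cord of each was hybridized to 1 nylon filter of cDNA clones (the B filter of the NIA mouse array), with 8448 features. A feature is 1 spotted clone, and a Z score is its signal in SDs of all features of the same filter. The CR group held 4 females of 703 to 743 days and 3 males of 673 days. The AL group held 5 females of 704 to 733 days and 5 males of 714 to 743 days. The statistical fit also held 18 mice of 6 months (169 to 194 days) and 20 of 16 months (472 to 499 days), on CR or AL. At 6 months CR had 5 females and 3 males, and each other group of sex and diet at these ages had 5 mice. The fit held 5 juveniles of each sex (17 to 44 days, AL) as well. Per the labels, CR mice were on full feed until 13 weeks old, then on 90% as fortified feed for 1 week, on 75% for another week and on 60% for the rest of life. No AL mouse was as young as the restricted males, so diet and age cannot be told apart in males.

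CR lowers insulin, insulin-like growth factor and leptin signals and raises glucocorticoids. Low cellular energy activates the AMP-activated protein kinase (AMPK), which slows anabolic growth through mTOR and favors fat oxidation, autophagy and stress defence. CR extends life span in many rodent strains and delays several age-related changes of the nervous system, and aged spinal cord is known for glial activation, loss of motor neuron synapses and changes of myelin.

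Before any comparison of diets, the filters separated by array run. Arrays with title numbers 22 to 43 and 66 to 67 formed the second run, with 3 of 7 CR and 6 of 10 AL filters, and the others the first run. The first principal component of the 17 filters took up 42.4% of the variance. Of its own variance 94.2% was between runs and 6.35% between diets. On the second component (13.5%), CR male 1 stood at 18.3 and the other 16 filters between -13.2 and 5.27. Diet differences also followed the position of the spots. Differences of features 22 places apart in the numbering correlated at r = 0.469 and those 11 apart at 0.0372, a description over features, which are not replicates. The mean difference of a place in this repeat ran from -0.0850 to 0.0902. Where they bear on a result, values are therefore added from a run-adjusted fit (run entered as a term, arrays 31 to 33, of other groups, left out), from each run alone and without the males of 673 days. Arrays 31 to 33 belong to the 6-month groups and enter the 24-month comparison only through the spread that all groups share. The values without the males of 673 days set 4 CR females against AL mice of both sexes, so diet and sex are not balanced in them, and the difference within females is the balanced value.

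**Figure D1:**
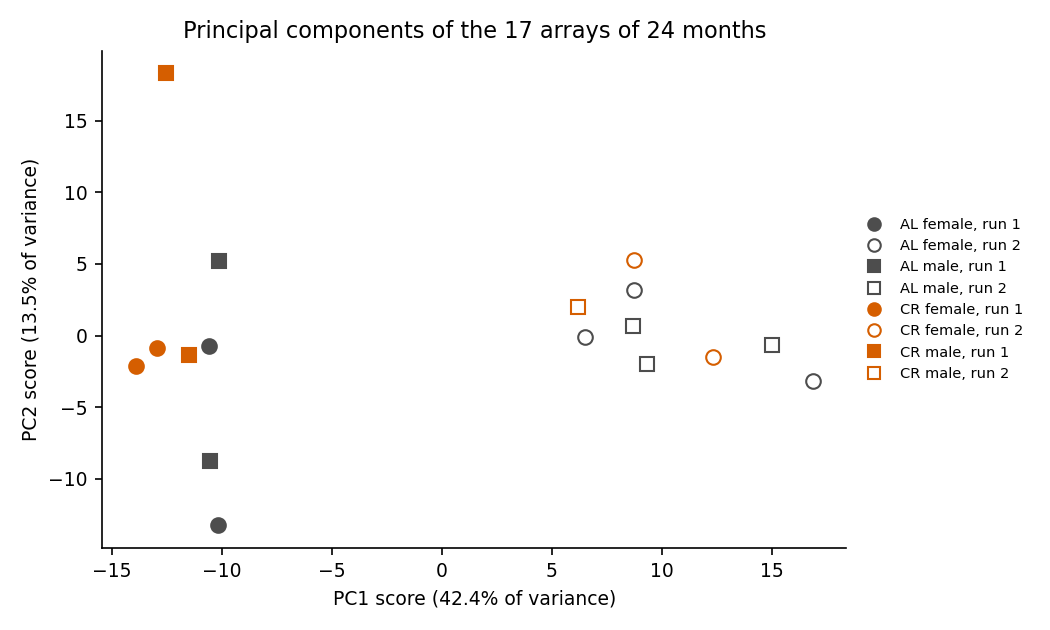
Scores of the 17 filters on the first (x axis) and second (y axis) principal component, without units, with colour for diet, shape for sex and fill for run. The runs lie apart on the x axis, and CR male 1 lies apart at 18.3 on the y axis.

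No feature differed between CR and AL mice at 24 months after adjustment. In limma, 0 of 8448 features passed an adjusted p of 0.05 (0% called), and the smallest adjusted p was 0.634. At an unadjusted p of 0.05, 627 features passed, of which 456 (5.4% of all features) were higher and 171 (2.02%) lower in CR. The groups overlapped in every feature, so 0% had all CR mice above or below all AL mice. Of all differences 50.6% lay above 0. The median size of a difference was 0.0631 Z and the 95th percentile 0.196, beside a median SE of 0.0734, so that a feature with this SE needed a difference of 0.147 to reach even the unadjusted threshold. In the run-adjusted fit the median SE was 0.0529, and 1542 features had an unadjusted p under 0.05 (822 higher, 720 lower), again with 0 called and a smallest adjusted p of 0.0997. Most of this rise went with the arrays left out. Without arrays 31 to 33 alone 1407 features passed (809 higher, 598 lower, smallest adjusted p = 0.120 in limma), and with run as a covariate alone 655 did (478 higher, 177 lower, smallest adjusted p = 0.633 in limma). The split into higher and lower differed between fits. In a fit of the 17 filters alone it was 329 higher and 374 lower. In a t-test of the 7 CR against the 10 AL mice it was 275 and 357. Both had 0 called after adjustment.

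The number of features past the unadjusted threshold rested on few mice. Without CR male 1 it dropped from 627 to 112, and without all 3 CR males of 673 days to 44, of which 17 were higher and 27 lower. Without CR female 4 it was 322 and without AL female 5 it was 371. It was 958 without AL male 4, 1038 without CR male 2 and 1129 without CR female 1. With age in days as a covariate it was 128. Within the first run 1379 features passed and within the second run 258. None of these settings gave a called feature.

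**Figure D2:**
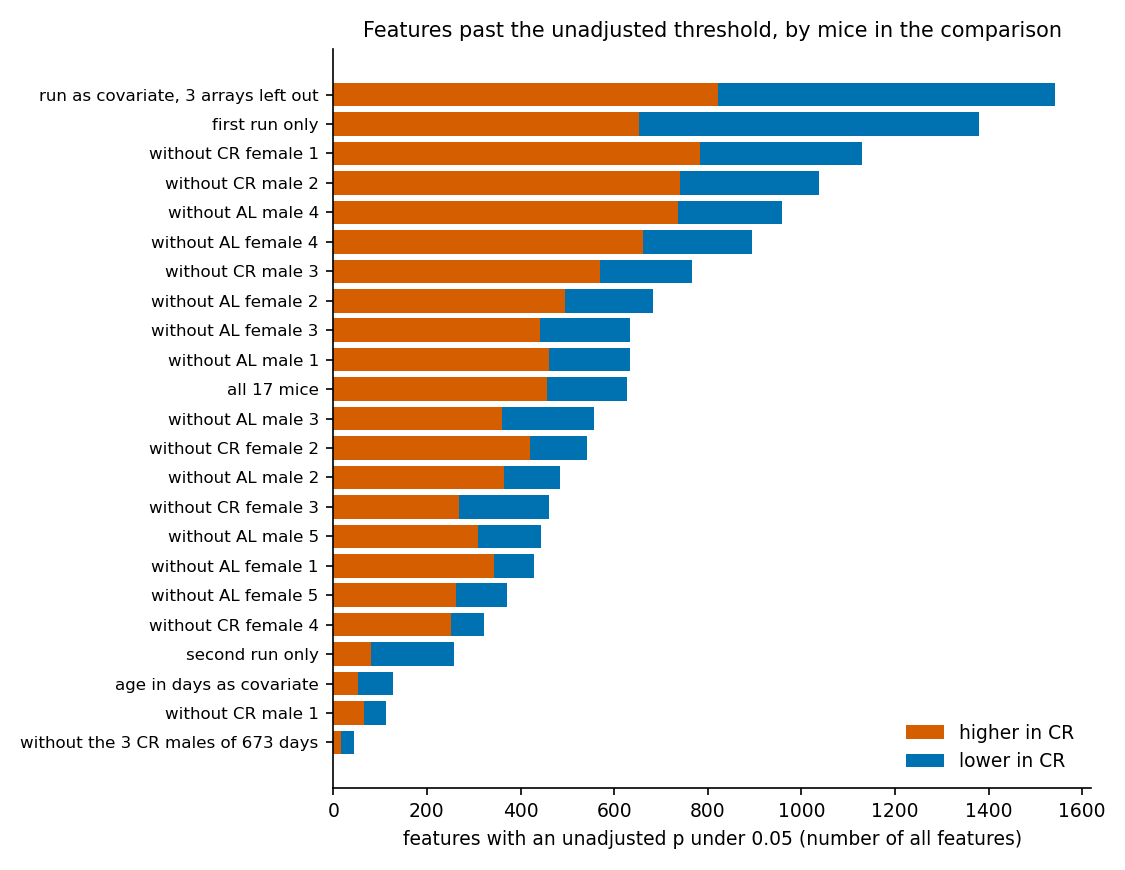
Number of features with an unadjusted p under 0.05 (x axis), higher or lower in CR, for the comparison of all 17 mice, without each mouse in turn and in 5 other settings (y axis). The bar is longest with run as a covariate and arrays 31 to 33 left out (1542) and shortest without the 3 CR males of 673 days (44).

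Among the genes of insulin and nutrient sensing, the subunits of AMPK led the comparison. Prkab2, which encodes the beta-2 regulatory subunit of AMPK, had the smallest p of all features with 1 gene symbol in the 65-array fit. Ranks by p, here and below, are those of this fit unless stated, and depend on the spread shared with other ages. In the t-test of the 7 CR against the 10 AL mice, Prkab2 had an unadjusted p of 0.00902. Csf3r (0.00264) and Rab11b (0.00293), both lower in CR, had smaller p there. The Z score of Prkab2 ran from 0.370 to 0.790 in CR mice with a median of 0.470, and from 0.180 to 0.580 in AL mice with a median of 0.290. All 7 CR mice were above the AL mean, 1 of them above every AL mouse, and the groups overlapped. The difference was 0.195 (SE 0.0534, unadjusted p = 0.000609, adjusted p = 0.634 in limma), with 0.149 in females and 0.240 in males. It was 0.183 in the run-adjusted fit (adjusted p = 0.0997, or 0.633 where arrays 31 to 33 were kept), 0.170 within the first and 0.158 within the second run, 0.152 without the males of 673 days and 0.137 without CR male 1, whose value was the highest. Prkab1, the beta-1 subunit of the same kinase, had the opposite sign. It ran from -0.260 to 0.200 in CR (median -0.0700) and from -0.0900 to 0.350 in AL mice (median 0.120). CR mice were below the AL mean in 6 of 7 cases. Its difference was -0.201 (SE 0.0785, unadjusted p = 0.0134), with -0.237 and -0.113 in the first and second run and -0.144 without the males of 673 days.

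Irs1, the adaptor that couples the insulin receptor to phosphatidylinositol kinase, was higher by 0.117 (SE 0.0487, unadjusted p = 0.0194). It had 0.185 in males and 0.05 in females. Igfbp3, a carrier of insulin-like growth factors, had a difference of 0.103 (SE 0.0548, unadjusted p = 0.0658) and one of 0.0475 without the males of 673 days (0.0612 without CR male 1). The growth factor Igf2 had a difference of 0.0218 (SE 0.0361). Flcn, folliculin, which links amino acid supply to mTOR, had 0.317 in males and 0.00500 in females. One mouse, CR male 3, stood at 0.510 for Flcn while the other CR mice were at or below -0.0700, and without it the difference of both sexes dropped from 0.161 to 0.0475. Of the 20 features of 17 measured genes of this list, 12 were higher and 8 lower, 2 and 1 of them with an unadjusted p under 0.05 and 0 called, and the median difference was 0.0129. Over all features with 1 symbol 53.9% were higher and the median was 0.00775.

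**Figure D3:**
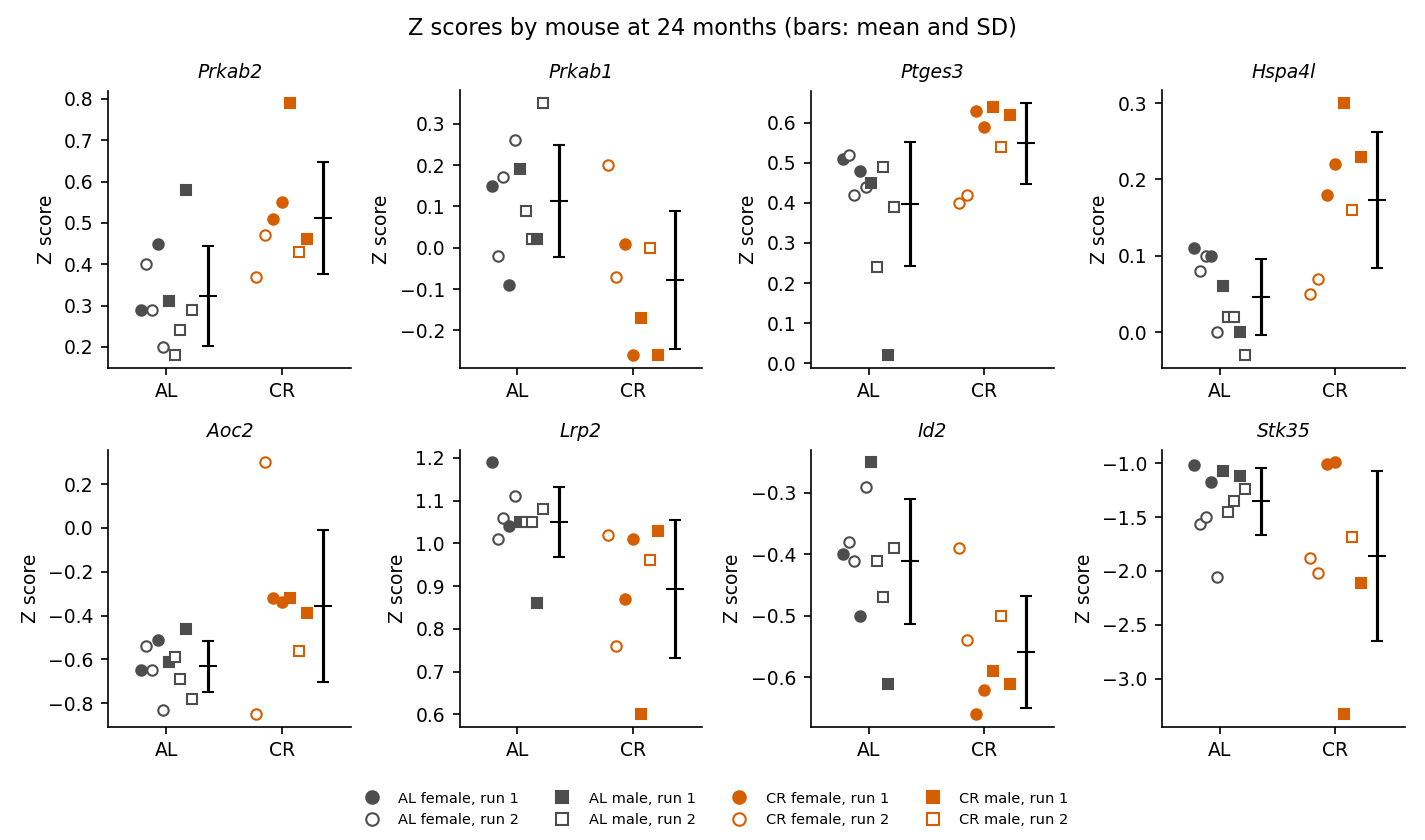
Z score (y axis) of each mouse by diet (x axis) for 8 genes, with shape for sex, fill for run, and bars for the mean ± SD of 7 CR and 10 AL mice. The groups overlap in every panel, and CR male 1 holds the highest CR value of Prkab2 (0.790) and the lowest of Stk35 (-3.33).

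Some genes of protein folding were also among those with the smallest p. Ptges3, a co-chaperone of the heat shock protein Hsp90, ran from 0.400 to 0.640 in CR (median 0.590) and from 0.0200 to 0.520 in AL mice (median 0.445). Each of the 7 CR mice exceeded the AL mean, and 5 exceeded every AL mouse. The difference was 0.159 (SE 0.0485, unadjusted p = 0.00183), made up of 0.282 in males and 0.0360 in females. This SE comes from the spread of all 65 arrays. In the t-test of the 7 CR against the 10 AL mice the difference was 0.153 (SE 0.0668, unadjusted p = 0.0375). AL males 4 and 2 stood at 0.0200 and 0.240, and the other AL mice at 0.390 to 0.520. In the second run the CR mice stood at 0.400 to 0.540 and the AL mice at 0.240 to 0.520. Hspa4l, a heat shock protein that serves as nucleotide exchange factor of other chaperones, ran from 0.05 to 0.3 in CR (median 0.180) and from -0.0300 to 0.110 in AL mice (median 0.0400). Again 5 of 7 CR mice exceeded every AL mouse, and the other 2, CR females 1 and 2, both of the second run, did not. Its difference was 0.134 (SE 0.0435, unadjusted p = 0.00324), and it was 0.165 within the first and 0.0783 within the second run. Dnajc15, a mitochondrial J-domain protein, was higher by 0.152 (SE 0.0522), and Cct4, a subunit of the cytosolic chaperonin, had 0.0903 (SE 0.0414), or 0.0495 without CR male 1. Over the 38 chaperone features 21 were higher (55.3%) and 17 lower, beside 53.9% higher over all features with 1 symbol. At an unadjusted p under 0.05, 3 were higher and 0 lower, beside 269 and 79 of the 4875 features with 1 symbol. The list median of 0.00283 was below the 0.00775 of those features, so the list as a whole did not stand out.

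Of the 15 genes with the smallest p, 4 kept an unadjusted p under 0.05 without the young males, and these were Aoc2, Lrp2, Slc25a44 and Prkab2. Aoc2, a copper amine oxidase, ran from -0.850 to 0.3 in CR (median -0.340) and from -0.830 to -0.460 in AL mice (median -0.630). CR female 2 was the highest and CR female 1 the lowest of all 17 mice, and 5 CR mice were above every AL mouse. Its difference was 0.268 (SE 0.0843, unadjusted p = 0.00244), 0.168 without CR female 2 and 0.329 (unadjusted p = 0.00210) without the males of 673 days. Lrp2, the endocytic receptor megalin, ran from 0.6 to 1.03 in CR (median 0.960) and from 0.860 to 1.19 in AL mice (median 1.05), and all 7 CR mice were below the AL mean. The difference was -0.161 (SE 0.0534, unadjusted p = 0.00395), with -0.167 in females and -0.155 in males, but -0.0950 without CR male 1. Slc25a44, a mitochondrial carrier of branched-chain amino acids, was higher by 0.203 (SE 0.0639) and by 0.165 without the young males. Among the genes leading the run-adjusted fit, Nrp, as the platform names this clone, had a difference of -0.239 (SE 0.0880), with -0.232 in females and -0.246 in males and with -0.273 in the first and -0.204 in the second run. It had -0.219 (unadjusted p = 0.0457) without the young males.

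Id2, an inhibitor of basic helix-loop-helix factors, was measured by a pair of features. At feature 12323 the scores ran from -0.660 to -0.390 in CR (median -0.590) and from -0.610 to -0.250 in AL mice (median -0.405), with 6 of 7 CR mice below the AL mean. The difference was -0.149 (SE 0.0585, unadjusted p = 0.0141). It was -0.157 in females and -0.141 in males, -0.180 and -0.0908 in the first and second run, and -0.141 (unadjusted p = 0.0509) without the young males. Feature 12394 had -0.125 (SE 0.106), with -0.00500 in the second run. The related Id3 had 0.0308 (SE 0.0677).

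The other genes among the 15 with the smallest p had roles in transcription, RNA and signaling. Kidins220, a scaffold of neurotrophin receptors, was higher by 0.175 (SE 0.0519, unadjusted p = 0.00138). Aimp1 of the tRNA synthetase complex had 0.116 (SE 0.0366), with all 7 CR mice above the AL mean. Differences were 0.113 for the splicing factor Srsf2, 0.162 for Tdrd3, a reader of methylarginine, 0.164 for the Mediator subunit Med14, 0.188 for the kinase Hipk3 (0.118 without CR male 1), 0.206 for Svil, an actin-binding membrane protein, and 0.247 for the phosphatase Ilkap. For Ilkap, AL male 5 and AL female 5, both of the second run, stood at 0.250 and 0.240. The other AL mice stood at 0.670 to 0.950 and the CR mice at 0.750 to 1.18, so its difference leaned on those AL filters. This was not particular to Ilkap. For Med14 the same filters stood at -0.09 and -0.18, and the other AL mice at 0.02 to 0.25. They were also the lowest AL filters for Mmp2 and Tpm2, given below. Mbd1, which binds methylated CpG, had a difference of -0.22 (SE 0.0730), and CR mice were below the AL mean in 6 of 7 cases. Of these 15, 13 were higher and 2 lower, and in 13 the difference was larger in males than in females. Over all features at an unadjusted p under 0.05, a lean to higher was absent in the fit of the 17 filters alone (329 higher, 374 lower). The study's selection rule, given below, took 16 higher and 32 lower features with 1 symbol. The 15 genes were chosen on these mice, so their sign in subsets of the same mice is no separate evidence. Without the young males their size had a median of 0.627 of the full value, and 4 of 15 had an unadjusted p under 0.05. With age as a covariate these were 0.570 and 3 of 15, and within the second run 0.645 and 2 of 15, against 13 of 15 within the first run. With features centred on their position the median ratio was 0.666.

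In the run-adjusted fit, which also leaves out arrays 31 to 33, genes with lower scores in CR joined the leading ones. Rab11b, a small GTPase of recycling endosomes, had -0.197, Nr2e1, an orphan receptor of neural stem cells, -0.176, and Csf3r, the receptor of granulocyte colony-stimulating factor, -0.215. Myof, a membrane repair protein, had -0.224, and Nudcd2 -0.198. All had an adjusted p of 0.0997 in limma and negative values in both runs. With run as a covariate and all arrays kept, the smallest adjusted p of any feature was 0.633. All 7 CR mice were below the AL mean for Nr2e1 and Csf3r.

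Clock and glucocorticoid genes were of interest because feeding time and fasting act on both. Nr1d2, a clock repressor of the Rev-erb family, ran from -0.720 to -0.230 in CR (median -0.330) and from -1 to -0.330 in AL mice (median -0.610). Its difference was 0.185 (SE 0.0892, unadjusted p = 0.0428), 0.135 in the first and 0.128 in the second run. Ciart, another clock repressor, had 0.156 (SE 0.0882), with 0.254 in the second run and -0.0275 in the first. Of the 6 clock genes measured, 4 were higher and 1 had an unadjusted p under 0.05. Arntl, Per3, Csnk1d and Csnk1e had differences of -0.0151, 0.0125, 0.0452 and -0.0168. In the glucocorticoid list Glcci1 was higher by 0.159 (SE 0.0745, unadjusted p = 0.0373), with 6 of 7 CR mice above the AL mean. Sgk1, the glucocorticoid-induced kinase, had 0.00575 (SE 0.0783), and Fkbp5, which restrains the glucocorticoid receptor, -0.0115 (SE 0.0685). Of these 6 genes 3 were higher and 3 lower, with 1 and 0 at an unadjusted p under 0.05.

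Energy metabolism was described by enzymes of glucose oxidation and of fat oxidation, beside 53.9% higher over all features with 1 symbol. Of 27 features of glycolysis and the TCA cycle 17 were higher (63.0%), with 1 higher and 1 lower at an unadjusted p under 0.05 and a median of 0.0525, or 0.0285 without the young males. Dlst, a subunit of the alpha-ketoglutarate dehydrogenase complex, was measured by 3 features with differences of 0.153 (SE 0.0602), 0.0797 and -0.0577. Hk2, a hexokinase, had a difference of -0.115 (SE 0.0513), with 6 of 7 CR mice below the AL mean. Of 14 features of fatty acid oxidation and ketone use 11 were lower, none at an unadjusted p under 0.05, and their median was -0.0426, or -0.0243 without the young males. It was -0.0425 within the first run and 0.00417 within the second. Etfdh, which passes electrons from fat oxidation to the respiratory chain, had -0.119 (SE 0.0796), Hadh -0.133 (SE 0.107) and Acadl 0.141 (SE 0.0708). The list medians of respiratory chain and translation genes over all 17 mice stayed near that of the whole table. Complex I had a median of 0.0113 over 17 features, and its subunit Ndufs7 had -0.132 (SE 0.0472, unadjusted p = 0.00706). Complexes II to IV with cytochrome c had -0.00504 over 16 features, ATP synthase 0.00129 over 18, the mitochondrial ribosome 0.0115 over 26 and the cytosolic ribosome -0.00908 over 93. Of the cytosolic ribosomal features 35 were higher (37.6%, beside 53.9% of all features with 1 symbol) and 58 lower. None had an unadjusted p under 0.05, and their median was -0.0475 within the first run and 0.0258 within the second. Lists of lipid synthesis had medians of -0.0112 over 11 features of cholesterol synthesis and transport and -0.0131 over 8 of fatty acid and membrane lipid synthesis. In the former, a feature of Lrp1, a receptor of apolipoprotein E, was higher by 0.138 (SE 0.0474), while the other Lrp1 feature had -0.0737 (SE 0.136).

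Lists of DNA repair, redox defence and matrix held more higher than lower features at the unadjusted threshold, as did the whole table. Of the 4875 features with 1 symbol 269 were higher and 79 lower at this threshold, and over all features this lean was absent in the fit of the 17 filters alone. Among 31 repair and telomere features 4 were higher and 1 lower, and the list median was 0.0426, or 0.0280 without the young males. Xrcc6, the Ku70 protein of end joining, ran from 0.770 to 1.06 in CR (median 0.900) and from 0.560 to 0.870 in AL mice (median 0.765), with all 7 CR mice above the AL mean. Its difference was 0.158 (SE 0.0584, unadjusted p = 0.00896), or 0.0955 without the young males. Pms2, of mismatch repair, had 0.226 (SE 0.0886) at one feature and 0.0653 at another. Pot1a, which caps telomeres, had 0.151 (SE 0.0598), and the DNA ligase Lig1 0.126 (SE 0.0552). The Werner helicase Wrn had 0.0876 (SE 0.0546, unadjusted p = 0.115), or 0.0513 without AL female 5. Among 30 redox features 3 were higher and 0 lower at the unadjusted threshold, with a median of 0.0332. These were Ephx1, an epoxide hydrolase (0.166, SE 0.0790), the glutathione transferase Gstm2 (0.0932, SE 0.0409) and 1 feature of the transcription factor Nfe2l1 (0.121, SE 0.0596, or 0.0788 without CR male 1), whose other feature had -0.0140 (SE 0.0944). One of 2 features of the superoxide dismutase Sod2 had -0.193 (SE 0.115, unadjusted p = 0.0989) and was among the lower features of the study's selection. The Gstm2 value was -0.00846 when features were centred on their position.

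Protein turnover lists had medians of 0.0184 over 22 proteasome features, with 0 at an unadjusted p under 0.05 in either direction, and 0.0157 over 64 features of ubiquitin conjugation and release, with 1 higher and 0 lower. Lists of growth and signaling were similar, with 0.0246 over 32 cell cycle features, 0.00896 over 18 of Wnt and Notch signaling and 0.0214 over 15 imprinted transcripts. Dlk1, an imprinted ligand of the Notch family, was higher by 0.170 (SE 0.0838), and Cdkn1c, an imprinted inhibitor of cyclin-dependent kinases, had -0.321 (SE 0.233) with -0.0167 in the second run.

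Collagens and matrix genes had 5 features higher and 0 lower at an unadjusted p under 0.05 among 45, beside 5.4% higher and 2.02% lower over all features, with a median of 0.0219. Col4a1, of basement membranes, ran from 1.45 to 1.77 in CR (median 1.58) and from 1.28 to 1.58 in AL mice (median 1.51). Its difference was 0.131 (SE 0.0455, unadjusted p = 0.00571), with 0.187 in males and 0.0750 in females. Mmp2, a gelatinase, was higher by 0.166 (SE 0.0694), Col6a2 by 0.163 (SE 0.0658, or 0.0920 without CR male 1) and 1 feature of fibrillar Col3a1 by 0.152 (SE 0.0604). A second Col4a1 feature had -0.000417, and the other 3 Col3a1 features had 0.0354, 0.0129 and -0.0312. Such disagreement was general. Over 561 genes with at least 2 features, differences of the first and second feature correlated at r = 0.0541 and had the same sign in 52.4%. Only for Fxr1, an RNA-binding relative of the fragile X protein, did 2 features have an unadjusted p under 0.05 in 1 direction, with 0.158 (SE 0.0672) and 0.116 (SE 0.0558). Fxr1 was singled out after its values were seen. A gene name here stands for a clone whose identity was not tested.

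Hemoglobin had the lowest median of the lists with 8 or more features. Of 21 red cell features 17 were lower in CR, with a median of -0.102, and 1 was higher and 0 lower at an unadjusted p under 0.05. Of 15 features of alpha-globin (Hba-a1 and Hba-a2) 14 were lower, with differences of -0.179 to 0.163 and 0 at an unadjusted p under 0.05. These 15 features are not replicates. The mean over them ran from 0.525 to 0.906 in CR (median 0.779) and from 0.509 to 1.35 in AL mice (median 0.849), so the AL range contained that of CR. AL males 3 and 4 stood at 1.35 and 1.25 and the other AL mice at 0.509 to 1.01, so the difference leaned on those AL males. The median difference was 0.0125 within the first run and -0.162 within the second. Of the 12 Hba-a1 features 6 shared 1 place in the repeat of 22. Bpgm, a red cell enzyme, was higher by 0.181 (SE 0.0790) at one of 2 features, and Alas2, of heme synthesis, had 0.0421 (SE 0.0717). In whole tissue, fewer cells of a type and less RNA per cell cannot be told apart, and the part of blood content in these values was not tested.

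Markers of the cells of the spinal cord did not separate the diets, but few of them were on this filter. Of the defining markers, 2 of 9 neuronal, 2 of 6 astrocytic, 4 of 9 microglial and 1 of 8 oligodendrocyte genes were present, and 0 of 4 for endothelium and for lymphocytes. The neurofilament Nefl stood at the 87.1 and 83.6 percentile of all features, with diet differences of -0.0587 (SE 0.115) and -0.0493 (SE 0.165). The complement chains C1qa, C1qb and C1qc of microglia had 0.0217, -0.0384 and 0.0118, each under its SE of 0.0686, 0.0600 and 0.0516. The lysosomal protease Ctsd had -0.100 (SE 0.104) and -0.0449 (SE 0.106). Median differences were -0.0128 over 11 neuronal, -0.0263 over 9 astrocyte, -0.0196 over 13 microglial and 0.0217 over 7 complement features, and -0.0261 over 10 features of antigen presentation. None of these lists had a feature higher at an unadjusted p under 0.05, and the neuronal list had 1 lower. Synaptic vesicle genes were lower in 10 of 12 features with a median of -0.0390. Syt11, a synaptotagmin, had -0.145 (SE 0.0676) and Ap2s1, an adaptor of clathrin, -0.116 (SE 0.0568). Within the second run they had -0.0325 and -0.125, and the list median was -0.0113 without the young males. Of tissues outside the cord, Mylpf of muscle had -0.0763 (SE 0.0658), Pmp22 of peripheral myelin 0.00133 (SE 0.152) and Plin2 of fat 0.00925 (SE 0.0544). Tpm2, a tropomyosin of muscle, had 0.355 (SE 0.177, unadjusted p = 0.0493). Xist ran from -0.720 to -0.530 in females and from -1.01 to -0.590 in males, which overlap. Uty, a gene of the Y chromosome, ran from -2.01 to -1.14 in females (median -1.27). In males it ran from -2.42 to -1.09 (median -1.505), so it was not higher in males. Neither of these sex markers served as a check of the sex labels, on which the values by sex rest.

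**Figure D4:**
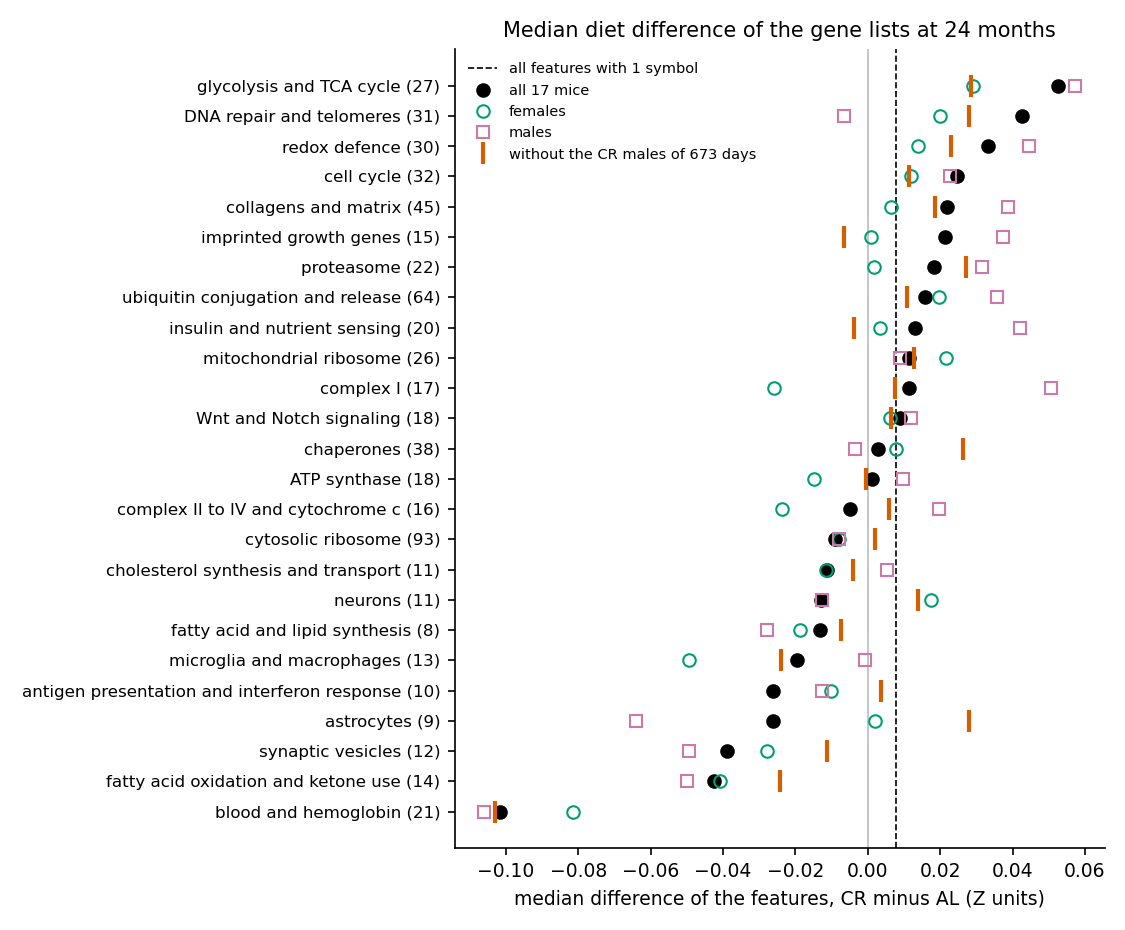
Median difference of the features of each list with 8 or more features, CR minus AL in Z units (x axis), for all 17 mice, females, males and without the 3 CR males of 673 days, with the number of features in brackets (y axis). Blood and hemoglobin lies lowest at -0.102 and glycolysis and TCA cycle highest at 0.0525, and the dashed line marks all features with 1 symbol.

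Separated by sex, 0 features were called in females (0%), with 39 at an unadjusted p under 0.05, and 0 in males (0%), with 612. The median size of a difference was 0.0510 in females and 0.0887 in males, beside a median SE of 0.0994 and 0.108. Differences of the sexes correlated at r = 0.393 over all features and had the same sign in 68.1%, a description, since the fit weights both sexes into 1 value. The test of the sex difference called 0 features (0%), with 80 at an unadjusted p under 0.05. In the run-adjusted fit, the comparison in males called 2 features (0.0237%), both lower in CR, that were not called in the unadjusted fit. One was Stk35, a serine/threonine kinase. It stood at -3.33, -1.68 and -2.11 in CR males, -2.02 to -0.990 in CR females and -2.06 to -1.02 in AL mice. The male difference was -1.28 (SE 0.246, adjusted p = 0.0265 in limma), but CR male 1 alone held the lowest value. For the difference of both sexes in the unadjusted fit, which is not the called contrast, leaving this mouse out changed -0.570 to -0.331. The other, feature 11830, has no gene name here. It ran from 0.900 to 1.21 in CR and from 1.10 to 1.38 in AL mice, with all 7 CR mice below the AL mean and a male difference of -0.330 (SE 0.0669, adjusted p = 0.0373). The sex difference was not called for either in that fit (adjusted p = 0.999 each in limma). Tinagl1, a matrix protein, had a difference of -0.383 in males (SE 0.0998) and had -0.00850 in females (unadjusted p of the sex difference = 0.00771). Sex and age were joined in these values, since all CR males were of 673 days.

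The diet difference at 24 months was set against that at 6 and 16 months, which had their own AL mice. No feature was called in either test (0% each), with 132 and 323 at an unadjusted p under 0.05. Sgk1, the glucocorticoid-induced kinase, came nearest. It was higher in CR by 0.483 (SE 0.0763, adjusted p = 0.000400) at 6 months, by 0.253 (SE 0.0706) at 16 months and by 0.00575 at 24 months, and the difference at 24 months minus that at 6 months was -0.478 (SE 0.109, unadjusted p = 5.63e-05, adjusted p = 0.475). At 6 months the CR mice stood between -1.18 and -0.820, and at 24 months between -1.55 and -0.920, where they spanned most of the AL range of -1.58 to -1.11. At 24 months the Sgk1 difference was -0.190 in the first and 0.192 in the second run, and 0.158 in females and -0.146 in males. Plk2, a kinase induced by neuronal activity, was higher in CR by 0.494 (SE 0.0958, adjusted p = 0.0151) at 6 months, and had -0.0450 at 16 and -0.0174 (SE 0.0983) at 24 months. Arrays 31 to 33 are 6-month filters, and the run-adjusted fit, which leaves them out, moved several 6-month values. Plk2 then had 0.376 at 6 months and was no longer called (adjusted p = 0.988 in limma), while Sgk1 had 0.527 and stayed called (adjusted p = 0.000468 in limma). Prkab2 had 0.152 (SE 0.0521, or 0.0570 run-adjusted) at 6, -0.00300 (SE 0.0482) at 16 and 0.195 at 24 months. Id2 (feature 12323) was lower in CR at each age, with differences of -0.199 (SE 0.0570), -0.123 (SE 0.0528) and -0.149 (SE 0.0585), with unadjusted p of 0.000987, 0.0236 and 0.0141 and no adjusted call. Run-adjusted, its 6-month difference was -0.0892 (SE 0.0448, unadjusted p = 0.0518). The difference between 24 and 6 months was 0.0501 (SE 0.0817) for Id2. Lrp2 had -0.0960, -0.0510 and -0.161, and Igfbp3 0.159, 0.0480 and 0.103. Their run-adjusted 6-month differences were -0.0160 and 0.0642.

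**Figure D5:**
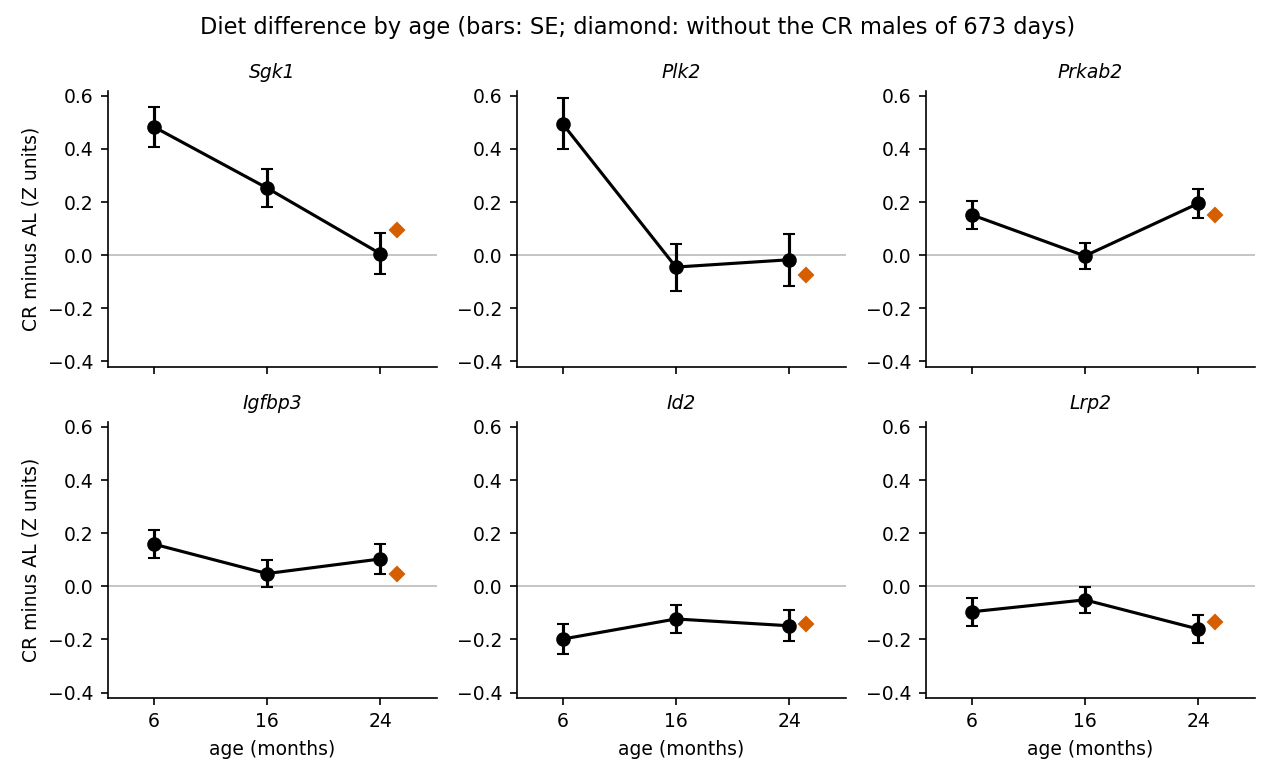
Diet difference, CR minus AL in Z units with its SE (y axis), at 6, 16 and 24 months (x axis) for 6 genes, with a diamond for 24 months without the CR males of 673 days. Sgk1 goes from 0.483 to 0.00575, the 6-month values include arrays 31 to 33, and Id2 (feature 12323) lies between -0.199 and -0.123 at every age.

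The study's own selection rule, which keeps features with a mean Z above 0, a z-ratio of at least 1.5 in size and an unadjusted p under 0.05, took 164 features (1.94%), 25 higher and 139 lower in CR. The p was taken from the t-test of the 7 CR against the 10 AL mice, since the methods do not name the test behind it. In that t-test none of the features passed adjustment (smallest adjusted p = 0.630). The selected differences were 0.148 to 0.276 in size. Of the 48 with 1 gene symbol 16 were higher, among them Prkab2, Ptges3, Xrcc6 and Mmp2, and 32 lower, among them Prkab1, Lrp2, Nr2e1, Csf3r, Rab11b and Nudcd2.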

How the data were processed

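RNA of each mouse was labelled with radioactive dCTP and hybridized to 1 filter, and ArrayPro read the intensities. What the authors deposited is a score, a Z transform of every array by itself. It carries no counts or depth and hides any shift shared by most features, and the number of arrays limits its precision. The log base was not given in the sources used here, so differences are in Z units. Of 8448 features 4875 had 1 symbol in the platform annotation, updated through RefSeq. limma 3.58.1 in R 4.3.3 fitted 14 group means of stage, diet and sex to 65 arrays (51 residual degrees of freedom). Sexes were weighted equally, except without the 3 CR males, and Benjamini-Hochberg adjustment was over all features, with calls at 0.05. The fit was tried on simulated data with independent normal errors. These held no run effect or correlation by spot position, so the trial does not cover either. Each mouse was a separate animal. The array of AL male 2 carried a description label that differed from its title and was kept, and also left out. Named were the 15 features with the smallest p (10 or 5 for other contrasts), members of 37 lists (of which 36 had a measured gene), all when a list held 8 or fewer genes and otherwise 4 and the defining markers, and genes named by earlier results. The members and lists were chosen with earlier results of these data known. Alternatives were the array run, arrays 31 to 33, age, other normalization, spot position, array weights, a t-test, the study's selection and leaving out mice. The ANOVA of the study's selection was not run.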

Additional observations from a re-analysis of the deposited data

Results flagged for a closer look

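In the groups of 7 CR and 10 AL mice, 1 mouse stood apart from the others by Dixon's ratio in 38 of 532 groups of named features. A rate of about 1 in 20 by chance holds only for independent groups that were not chosen on these mice. Some of these features were so chosen and features of 1 filter are correlated, so the count is a description. CR male 1 was the mouse that stood apart in 13 of the 38. Its high values were 1.49 for Gsk3b, 2.24 for H19, 1.51 for Psmd2, 0.790 for Prkab2, 0.0600 for Mrpl20, 2.13 for Uqcr11, -0.180 for Hipk3, 0.230 for Lcmt1, -0.410 for Usp16 and -0.360 for Col6a2. Its low values were -0.950 for Ier2, -1.15 for Psmd10 and 0.5 for Atp5g1 (feature 16578).

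Among the other CR mice, female 1 stood at 0.650 for Ccnd2 (feature 8478) and female 2 at 0.0200 for Sertad1. CR female 3 had 0.340 for Ern1, 0.320 for Cenpa and -1.79 for Elovl1, and CR female 4 had 0.430 for Atp5g1 (feature 12812). CR male 2 had -0.990 for Xist and CR male 3 had 0.510 for Flcn.

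Among AL mice, male 2, whose labels disagree, had -0.650 for Pcyt1a, 0.890 for Gja1 and 0.700 for Gsk3b, each the lowest. AL female 5 was lowest with -1.26 for C3ar1, -0.270 for Pms2, -0.210 for Wrn and -2.06 for Stk35. AL male 4 had 0.460 for Sparcl1, 1.13 for Hba-x, -0.520 for Dlk1 and -1.06 for Psmd10. AL female 1 had -1.81 for Slc4a8 and -2.03 for Cenpw. The remaining values were -0.150 for Trmt11 in AL male 5, -4.37 for Trim33 in AL male 3, 0.680 for Ctsd (feature 12575) in AL female 4 and -0.3 for Lcmt1 in AL male 1.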

How the results depend on the processing

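In every setting with adjustment, including each fit without 1 mouse, 0 features were called for the comparison of all mice, the females, the sex difference and the differences from 6 and 16 months. The exceptions were the males in the run-adjusted fit (2 features) and the study's rule without adjustment (164 features). Without 1 mouse the calls ranged from 0 to 0, and the number with an unadjusted p under 0.05 from 112 (without CR male 1) to 1129 (without CR female 1).

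Of the values of the 266 named features, 13 turned their direction by more than the residual SD. Within the first run these were Ciart (-0.0275), Sertad1 (-0.113), Sgk1 (-0.190) and Usp27x (-0.0150). Within the second run they were Psen2 (-0.0117), Dcn (-0.0358), Alas2 (-0.142) and Flcn (-0.0133). Without the CR males of 673 days Prkar2a had 0.0910 and Csnk1e 0.154. With features centred on their position Gstm2 had -0.00846, Cltb -0.0161 and Casq1 -0.0410. The cause was not tested. The other 8765 values included 497 smaller changes of sign.

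No paired analysis was possible because the replicate numbers are names given in accession order and pair no mice. The 5 rounds of array numbers, which pair no mice either, gave 0 called and 798 unadjusted (574 higher, 224 lower) as a block. The 17 arrays limit precision, and signal over background was not given in the values used here.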
